A study of Mus musculus with 2 samples.

Results

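Regulatory T cells (Tregs) are CD4+ T cells that hold other T cells in check, and the genes described here encode the surface and effector molecules by which they are known to do so. They are Ctla4, Tigit, Nrp1, Izumo1r, Gpr83, Lrrc32, Itgb8, Entpd1, Nt5e and Capg, 10 of the 32285 genes counted. The genes were taken by symbol, with earlier results of these data known. They were measured as unique molecular identifiers (UMIs, 1 per captured RNA molecule) by droplet 3′ single-cell RNA sequencing of thymic CD4+ cells from 2 mice, 1 per genotype. The knockout animal was a C57BL/6 Foxp3eGFPxLta-/- mouse, which lacks lymphotoxin alpha (a cytokine of the TNF family), and the control was a C57BL/6 Foxp3eGFP mouse. Both carried the eGFP reporter of Foxp3, the transcription factor that defines Tregs. CD8+ and CD11c+ cells were depleted. CD4+CD8-CCR6-CD3e+ cells with CD25 (the product of Il2ra, the high-affinity chain of the IL-2 receptor), with eGFP or with both were then sorted, 20000 per genotype, tagged with 1 of 2 hashtag antibodies and loaded in 1 capture. The labels state neither the age or sex of the mice nor how the Lta allele was made. The sorted cells therefore include Treg precursors as well as Tregs, and CCR6+ cells, among which recirculating Tregs are found, were gated out.

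Of 4798 barcodes, 4453 cells were used, 2244 of the Lta-/- mouse with a median of 5395 UMIs and 2209 of the Foxp3eGFP mouse with a median of 5547. A T cell list of Cd3e, Cd3d, Cd3g, Cd4 and Trac summed to 4246 counts per 1000000 UMIs (CPM) in Lta-/- cells and 4065 CPM in Foxp3eGFP cells. Only 32 cells carried at least 5 UMIs of B cell, plasma cell or macrophage markers. Lta itself had 72 UMIs in Lta-/- cells and 509 in Foxp3eGFP cells. Cells of 1 mouse are not replicates of a genotype or class, so no p-value was computed. Intervals are at 95% and cover counting error only. A member was counted in a comparison where its UMIs in the compared classes came to 100 or more, and called higher or lower at a ratio of 1.5 or more, which is 0.58 on the log2 scale. Counts come from the 3′ end, and levels are compared across cells, not between genes.

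Ctla4 (CTLA-4) binds and strips CD80 and CD86 from antigen-presenting cells, and Tigit binds the nectin-like ligand CD155. Lrrc32 (GARP) holds latent TGF-beta on the Treg surface, Itgb8 is the beta chain of an integrin that frees TGF-beta from its latent complex, and Nrp1 (neuropilin-1) is a semaphorin and VEGF co-receptor that marks many thymus-derived Tregs in mice. Entpd1 (CD39) cuts extracellular ATP to AMP and Nt5e (CD73) cuts AMP to adenosine. Izumo1r (folate receptor 4) and Gpr83 (a G protein-coupled receptor) are long-used Treg surface markers, and Capg is an actin-capping protein. In the thymus, Treg precursors gain CD25, Foxp3 or both before they leave through S1pr1, the sphingosine-1-phosphate receptor that lets mature thymocytes exit. Tnfrsf9 (4-1BB) is a TNF receptor family member that T cell receptor stimulation induces.

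The promoters of 4 members are shown because the results below separate these members from each other. Gpr83 and Izumo1r lie beside each other on chromosome 9 in opposite orientation, 15024 bases apart with 0 genes annotated between them. Each window runs from 250 bases before to 50 bases after the RefSeq gene start (GRCm38.p6), written 5′ to 3′ in the gene's direction. Capitals mark matches of the NFAT core GGAAA on either strand.
Gpr83, chr9:14859960-14860259, plus strand: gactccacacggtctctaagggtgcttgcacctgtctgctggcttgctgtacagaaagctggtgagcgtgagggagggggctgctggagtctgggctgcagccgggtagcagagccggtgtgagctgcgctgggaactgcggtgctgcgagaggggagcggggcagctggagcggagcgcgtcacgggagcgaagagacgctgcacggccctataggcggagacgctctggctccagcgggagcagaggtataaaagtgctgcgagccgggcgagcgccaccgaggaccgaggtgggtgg
Izumo1r, chr9:14903718-14904017, minus strand: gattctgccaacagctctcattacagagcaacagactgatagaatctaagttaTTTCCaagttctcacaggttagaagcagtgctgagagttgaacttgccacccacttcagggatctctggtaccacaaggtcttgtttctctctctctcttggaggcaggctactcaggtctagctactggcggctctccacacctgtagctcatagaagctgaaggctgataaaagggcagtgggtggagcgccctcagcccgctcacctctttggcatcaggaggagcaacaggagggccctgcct
Nrp1, chr8:128358823-128359122, plus strand: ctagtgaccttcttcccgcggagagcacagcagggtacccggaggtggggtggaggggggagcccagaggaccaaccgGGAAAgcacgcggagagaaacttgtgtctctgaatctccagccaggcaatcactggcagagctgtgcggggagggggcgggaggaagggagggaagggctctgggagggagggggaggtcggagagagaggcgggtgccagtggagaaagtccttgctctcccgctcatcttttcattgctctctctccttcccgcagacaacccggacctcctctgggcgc
Ctla4, chr1:60908775-60909074, plus strand: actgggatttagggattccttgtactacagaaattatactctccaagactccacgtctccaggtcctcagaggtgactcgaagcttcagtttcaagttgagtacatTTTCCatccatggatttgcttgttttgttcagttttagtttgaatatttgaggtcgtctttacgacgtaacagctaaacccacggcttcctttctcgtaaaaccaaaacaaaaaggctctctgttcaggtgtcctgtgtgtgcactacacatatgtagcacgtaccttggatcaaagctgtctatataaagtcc

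The RefSeq table held a promoter for 9 of the 10 members, with Lrrc32 not matched and Entpd1 listed with a pair of starts. The Gpr83 window was 67% G or C with 24 CpG dinucleotides and the Nrp1 window 64% with 14. The Izumo1r window was 52.3% with 3 CpG and the Ctla4 window 42% with 8, against medians of 52.7% and 7 over 32851 promoters. Of the 4 motifs searched on both strands, TGTTTAC (forkhead) and TTCNNNGAA (STAT) had no match in any member window, and they occur in 3.65% and 8.30% of all promoters. GGAAA matched at -144 in Ctla4, -172 in Nrp1, -197 in Izumo1r, -110 and -13 in Tigit and -233 and -130 in Entpd1, and it occurs in 61.3% of all promoters. The NF-kB motif (GGGA, any 4 bases, CC) matched only in Nt5e, at -33, and occurs in 20.7%. These matches are letters in a window and say nothing of binding.

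Cells were first split by the transcripts of the sort itself. Cells with UMIs of both Foxp3 and Il2ra numbered 390 (median 5636.5 UMIs), cells with Il2ra only 584 (5841.5), cells with Foxp3 only 497 (4644) and cells with neither 2982 (5517.5). All cells passed a protein gate for CD25 or eGFP, so a cell with neither UMI is one in which neither RNA was captured, not one shown to lack them. Likewise, a cell with a UMI of only Foxp3 or only Il2ra is not shown to lack the other RNA. As a comparator, 323 cells with neither transcript and at least 3 UMIs of Ccr9, a chemokine receptor of immature thymocytes, were taken apart (median 5858 UMIs). That class is not known to lack any member, and its shares are given beside the others.

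Each of the 8 members that could be counted was highest in cells with both Foxp3 and Il2ra and lowest in cells with neither, with the single-transcript classes between. All 8 were called higher in cells with both over cells with neither, where 6.02% of 9276 genes were. Their median log2 ratio was 2.22, beside -0.09 over all genes. Lrrc32 had the widest range of the 8. It reached 84.7 CPM (73.8 to 96.8) in cells with both, 40.0 CPM in Il2ra only, 27.7 CPM in Foxp3 only and 4.33 CPM (3.46 to 5.34) in cells with neither, a log2 ratio of 4.29 (3.92 to 4.67) between the outer classes. It was detected in 34.4% of cells with both, 2.52% of cells with neither and 1.24% of the Ccr9-high cells.

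Ctla4 stood at 181 CPM (165 to 199) in cells with both, 82.5 in Il2ra only, 97.2 in Foxp3 only and 25.9 in cells with neither, log2 2.81 (2.62 to 2.99) between the outer classes. A Ctla4 UMI was found in 55.6% of cells with both, 11.9% with neither and 8.36% of Ccr9-high cells. Gpr83 stood at 144, 58.6, 60.6 and 23.3 CPM in the same order, log2 2.63 (2.43 to 2.83). For both genes the single-transcript classes lay near each other and clearly below cells with both: Il2ra only over Foxp3 only was -0.24 (-0.48 to 0.00) for Ctla4 and -0.05 (-0.34 to 0.25) for Gpr83. Itgb8 was rare but followed the same order at 19.7, 9.81, 12.0 and 3.77 CPM, log2 2.38 (1.84 to 2.92) between the outer classes.

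Nrp1 and Nt5e differed less between the classes with Foxp3. Nrp1 was at 94.2 CPM in cells with both, 62.6 in Il2ra only, 84.1 in Foxp3 only and 22.7 in cells with neither. Nrp1 in cells with both differed from Foxp3 only by log2 0.16 (-0.11 to 0.43), an interval that holds 0. Nt5e was at 55.5, 35.0, 42.3 and 16.3 CPM in that order of classes. The remaining pair, Izumo1r and Capg, was already abundant in cells with neither: Izumo1r stood at 372, 238, 260 and 180 CPM and Capg at 175, 102, 136 and 75.7 CPM. Their log2 ratios between the outer classes, 1.05 (0.95 to 1.15) and 1.21 (1.05 to 1.36), were the smallest of the 8.

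**Figure D1:**
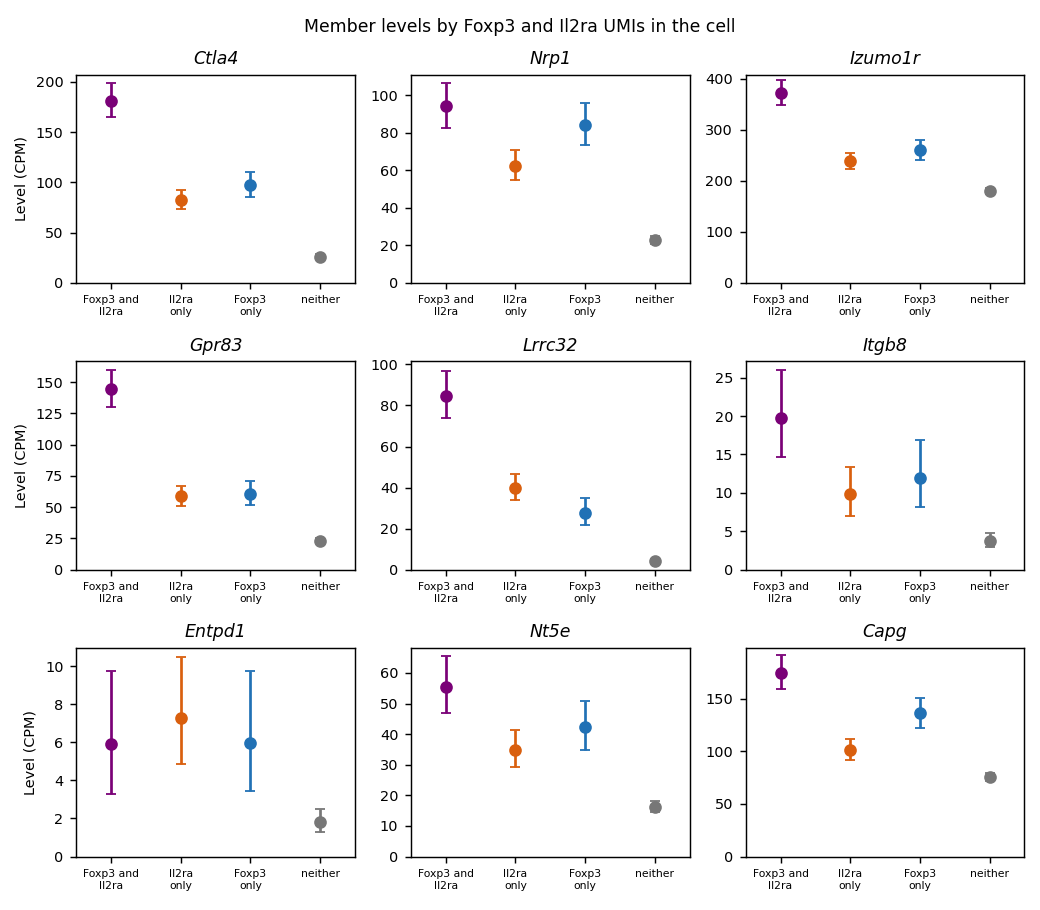
Level of each member (y axis, CPM, linear from 0, scale per gene) in cells with UMIs of Foxp3 and Il2ra, of Il2ra only, of Foxp3 only and of neither (x axis); points are pooled levels and bars exact 95% Poisson intervals. In 8 of the panels cells with both are highest and cells with neither lowest, from 84.7 against 4.33 CPM for Lrrc32 to 372 against 180 CPM for Izumo1r, whereas Entpd1 shows overlapping intervals in the first 3 classes.

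Entpd1 and Tigit were at the edge of detection. Entpd1 had 96 UMIs in all, at 5.91 CPM (3.31 to 9.75) in cells with both, 7.29 in Il2ra only, 5.98 in Foxp3 only and 1.81 (1.27 to 2.51) in cells with neither, so the first 3 classes overlapped and lay above the last. Tigit had 9 UMIs in 8 of 4453 cells (0.180%), and no ratio is given for it. All 8 cells with a Tigit UMI also carried at least 3 UMIs summed over recirculating or effector Treg markers (S100a4, S100a6, Cxcr3, Cxcr6, Klrg1, Il1rl1, Maf, Itgae and Ccr2), which 286 cells (6.42%) did. That marker share was 33.7% of the 86 cells with Entpd1, 21.0% of the 630 with Nrp1, 17.9% of the 497 with Nt5e and 14.2% of the 141 with Itgb8. It was 2.02% of the 642 cells with Gpr83 and 4.83% of the 373 with Lrrc32, below the share of all cells.

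The rest of the Treg program was read from lists drawn up beside the members. In cells with both over cells with neither, 6.02% of 9276 genes were higher and 12.4% lower. Of 14 counted other Treg genes, 11 were higher in cells with both over cells with neither and 0 lower, led by Socs2 (log2 3.79), a feedback inhibitor of cytokine receptors, Rgs1 (3.62), a regulator of G protein signals, and Cd83 (2.87). Among 9 genes of TGF-beta presentation and response, 3 were higher, the receptor Tgfbr1 (1.34), the protease Furin (1.28) and Smad7 (0.69), an inhibitor of the pathway. Of 9 adenosine genes, Enpp1 (1.21), Dpp4 (0.66) and the carrier Slc28a2 (0.59) were higher, and the carrier Slc29a1 (-1.36) and adenosine deaminase Ada (-0.63) lower. Of 8 B7 and nectin receptor partners, Pdcd1lg2 (1.09), Btla (0.74) and Cd86 (0.68) were higher and Cd28 (-0.67) lower. Other markers also differed between these classes. All 8 proliferation genes were lower in cells with both, summing to 549 CPM against 2242 CPM in cells with neither. Of 5 immature CD4 genes, 4 were lower, at 895 CPM against 1985 CPM. Myeloid or dendritic markers were lower in 8 of 9 genes (143 against 346 CPM) and B or plasma cell markers in 3 of 4 (86.3 against 372 CPM). Capg, which myeloid cells also express, had a log2 ratio of 1.21 in cells with both gate transcripts over cells with neither. It was 1.22 without the cells with B, plasma cell and macrophage markers and 1.28 without proliferating cells. Beyond leaving these cells out, the part of these markers in the member ratios was not tested.

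The members were then ranked by their level in each class as a percentage of the level in cells with both. The classes are not time points, so the ranks are not an order of appearance. In cells with Il2ra only, Nrp1 reached 66.5%, Izumo1r 64.0%, Nt5e 62.9% and Capg 58.1% of the level in cells with both. Lrrc32 reached 47.2%, Ctla4 45.5% and Gpr83 40.6%. The members thus fell into 4 nearer to and 3 farther from the double-transcript level. In cells with Foxp3 only the same 4 stood highest, Nrp1 at 89.4% (74.2 to 108), Capg at 77.8%, Nt5e at 76.1% and Izumo1r at 69.8%, and Ctla4 at 53.7%, Gpr83 at 42.0% and Lrrc32 at 32.7% (24.7 to 42.7) stood lowest. The intervals of neighbours in these orders mostly overlapped, and in Il2ra-only cells those of Capg and Lrrc32 did too. Either single-transcript class can include cells in which the other RNA was present but missed. With every cell thinned to equal depth and shallower cells left out, 186 cells had both transcripts, against 390 at full depth. The part of missed RNA in these percentages was not tested.

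Set directly against each other, all 7 counted members were called higher in cells with both over Il2ra only, where 3.81% of genes were, with a median log2 of 0.78. Gpr83 (1.30), Ctla4 (1.14) and Lrrc32 (1.08) were the farthest apart, and Nrp1 (0.59), Izumo1r (0.64) and Nt5e (0.67) lay just past the threshold. The count of 7 fell to 4 in Lta-/- cells alone, to 4 when each cell was given equal weight, and to 4 of 6 counted after thinning every cell to 3000 UMIs. In cells with both over Foxp3 only, 3 of 7 were called higher, where 2.95% of genes were: Lrrc32 (1.61), Gpr83 (1.25) and Ctla4 (0.90). Izumo1r (0.52), Nt5e (0.39), Capg (0.36) and Nrp1 (0.16) stayed within 1.5-fold. Proliferation markers were lower in cells with both in 7 of 8 genes over Il2ra only, where 8.34% of genes were lower. Over Foxp3 only 1 of 6 was, where 2.02% of genes were.

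**Figure D2:**
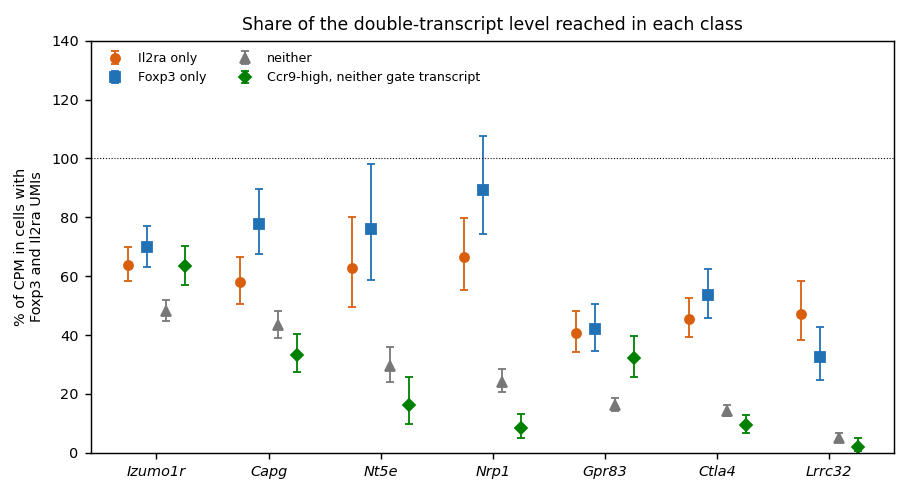
Level of 7 members (x axis) in 4 classes as a percentage of their CPM in cells with both Foxp3 and Il2ra UMIs (y axis; dotted line, 100%); bars are 95% intervals of the ratio. Nrp1 stands at 89.4% in Foxp3 only and 8.33% in Ccr9-high cells, whereas Izumo1r stays at 48.3% or above in every class and Lrrc32 is at 5.11% in cells with neither.

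The members differed in both directions between the Ccr9-high cells and the other cells with neither gate transcript. Gpr83 was at 46.2 CPM (38.1 to 55.6) there and 20.1 CPM in the other cells with neither gate transcript, log2 1.20 (0.88 to 1.51). It was the 1 member of 6 counted that was called higher, where 6.36% of genes were. Izumo1r, its neighbour on chromosome 9, was at 236 CPM in Ccr9-high cells and 172 CPM in the others, log2 0.45 (0.32 to 0.58), and Capg at 58.2 and 78.2 CPM, log2 -0.43 (-0.69 to -0.17), both within 1.5-fold. In the Ccr9-high cells Izumo1r therefore reached 63.3% and Gpr83 32.1% of the double-transcript level. Nrp1 was lower, at 7.84 against 24.8 CPM (log2 -1.66, -2.40 to -1.0), as were Nt5e (-0.93) and Ctla4 (-0.68), 3 of 6, where 5.53% of genes were lower. Lrrc32 had 4 UMIs and Itgb8 1 UMI in these 323 cells.

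Members were also read along UMIs of Foxp3 and of Il2ra. With 0, 1, 2, 3 and 4 or more Foxp3 UMIs, Ctla4 stood at 35.3, 114, 147, 184 and 225 CPM and Gpr83 at 29.2, 76.6, 122, 143 and 152 CPM, higher in each step. Nrp1 stood at 29.3, 83.6, 85.6, 102 and 126 CPM, but its intervals at 1, 2, 3 and 4 or more UMIs all overlapped. For each of these genes the largest step lay between 0 and 1 Foxp3 UMI. For all of them the intervals at 2 and at 3 Foxp3 UMIs overlapped, as did those at 3 and at 4 or more. With 0, 1, 2, 3 to 4 and 5 or more Il2ra UMIs, Lrrc32 stood at 7.10, 43.0, 55.7, 67.3 and 88.5 CPM and Gpr83 at 27.7, 63.2, 81.7, 125 and 144 CPM. Both were higher in each step, whereas Nrp1 had no order past 1 UMI, at 30.0, 76.3, 89.7, 50.5 and 84.3 CPM. From 1 Il2ra UMI on, the intervals of neighbouring bins overlapped for Lrrc32. For Gpr83 they did so except between 2 and 3 to 4 UMIs. The median depth of the cells was 5382 UMIs at 0 Il2ra UMIs and 6534 at 5 or more, and CPM divides by it.

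Cells were next split by S1pr1 and Tnfrsf9: 1771 cells had S1pr1 only (median 5056 UMIs), 585 both (5799), 880 Tnfrsf9 only (6413.5) and 1217 neither (5271). These classes also differed in the gate transcripts. A Foxp3 UMI was found in 28.6% of S1pr1-only cells, 33.8% of cells with both and 8.98% of Tnfrsf9-only cells. An Il2ra UMI was found in 21.6%, 33.7% and 29.2% of them. The part of these shares in the member ratios was not tested. Most members were higher in S1pr1-only cells. Over Tnfrsf9-only cells, 6 of 7 counted members were called higher, where 12.7% of genes were, and 0 lower, where 18.0% of genes were. Nrp1 stood at 57.2 CPM (52.7 to 62.0) in S1pr1-only cells and 15.7 CPM (12.9 to 19.0) in Tnfrsf9-only cells, log2 1.86 (1.56 to 2.17). Gpr83 stood at 61.0 and 19.5 CPM in the same order, log2 1.65 (1.37 to 1.93). Capg (1.23), Ctla4 (1.18), Nt5e (1.17) and Izumo1r (0.77) were also called. Lrrc32 was the exception, at 22.3 CPM in S1pr1-only cells and 16.6 CPM in Tnfrsf9-only cells, log2 0.42 (0.09 to 0.76). Below the UMI minimum, Itgb8 had 55 and 39 UMIs, at 5.27 and 5.85 CPM, and Entpd1 54 and 7 UMIs, at 5.17 and 1.05 CPM.

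The order of the 4 classes was not the same for all members. Lrrc32 was highest in cells with both S1pr1 and Tnfrsf9 at 33.6 CPM (28.2 to 39.8) and lowest in cells with neither at 6.93 CPM (5.22 to 9.03). Ctla4 was likewise highest in cells with both, at 90.1 CPM, and Itgb8 reached 14.2 CPM there, against 5.27 to 5.85 CPM in the other classes. Nrp1 and Capg were highest in S1pr1-only cells. Cells with both over Tnfrsf9 only gave 7 of 7 counted members higher, where 7.14% of genes were, among them Nrp1 (1.48), Gpr83 (1.44) and Izumo1r (0.72), and Lrrc32 was called here at 1.01 (0.64 to 1.39).

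Along S1pr1 UMIs of 0, 1, 2, 3 to 4 and 5 or more, Ctla4 stood at 30.5, 65.0, 65.6, 87.2 and 100.5 CPM and Lrrc32 at 11.4, 22.2, 24.1, 26.2 and 32.4 CPM, highest at the top. Izumo1r stepped up once, at 179, 257, 244, 241 and 232 CPM. Along Tnfrsf9 UMIs of 0, 1, 2 to 3, 4 to 7 and 8 or more, the members parted. Nrp1 stood at 48.0, 43.9, 30.1, 15.4 and 3.34 CPM and Capg at 107, 99.1, 68.4, 54.9 and 41.1 CPM, lower in each step. Entpd1 had 83 UMIs at 0 Tnfrsf9 UMIs and 6, 4, 2 and 1 in the bins above, too few to order them. Ctla4 was highest at 1 UMI, at 53.7, 78.7, 66.6, 36.1 and 12.2 CPM, and Nt5e had the same form at 26.3, 37.2, 21.1, 14.7 and 4.45 CPM. Itgb8 was also highest at 1 UMI, at 5.44, 10.2, 9.67, 8.27 and 6.67 CPM, the last from 12 UMIs (3.45 to 11.7 CPM). Lrrc32 had no single direction, at 15.7, 26.4, 19.7, 19.6 and 26.7 CPM. Median depth was 5136 UMIs at 0 and 7724 at 8 or more Tnfrsf9 UMIs. In the 203 cells with 8 or more, Lrrc32 (19.7 to 35.4 CPM) stood above its level at 0 (13.9 to 17.6 CPM), while Nrp1, Nt5e and Ctla4 stood below theirs.

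**Figure D3:**
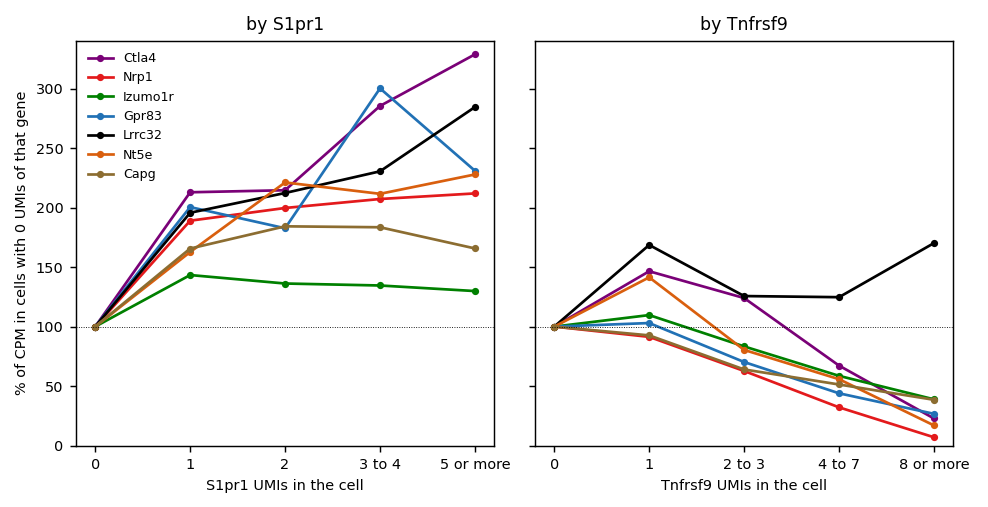
Level of 7 members as a percentage of their CPM in cells with 0 UMIs of the sorting gene (y axis; dotted line, 100%) by UMIs of S1pr1 (left) or Tnfrsf9 (right) in the cell (x axis, low to high). At 8 or more Tnfrsf9 UMIs Nrp1 is at 3.34 CPM, against 48.0 CPM at 0, whereas Lrrc32 is at 26.7 CPM, against 15.7 CPM at 0.

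The S1pr1 and Tnfrsf9 differences were also read within gate classes. In cells with Il2ra only, all 7 counted members were called higher with S1pr1 than without, where 11.2% of genes were, led by Gpr83 at 110 against 21.3 CPM (log2 2.37, 1.91 to 2.86), Nt5e (2.03) and Ctla4 (1.71). In cells with both gate transcripts 0 of 7 were called, where 9.46% of genes were, with Ctla4 at 0.56 (0.20 to 0.93) and Gpr83 at 0.35 (-0.03 to 0.75). Intervals for 6 of the 7, all but Lrrc32, did not overlap between these gate classes, but the difference was not tested. With Tnfrsf9 over without it, 6 of 7 members were lower in Il2ra-only cells, where 10.9% of genes were, with Nrp1 at 29.4 against 105 CPM (-1.84), and Lrrc32 at 38.4 against 42.1 CPM (-0.13, -0.60 to 0.34). In cells with both gate transcripts only Capg (-0.85) and Gpr83 (-0.59) were called lower with Tnfrsf9, where 5.03% of genes were.

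Other genes moved with S1pr1 and Tnfrsf9 as well. Of 9 counted genes of TGF-beta presentation and response, 4 were higher in S1pr1-only cells, Smad7 (2.02), Ski (1.02), Tgfbr2 (0.65) and Itgb1 (0.64), and 0 lower. Of 14 counted other Treg genes, 4 were higher in S1pr1-only cells, Socs2 (2.66), Rgs1 (2.16), Itgae (1.25) and Il2rb (0.72). Unlike most members, 8 were lower, among them Cd83 (-2.12), Penk (-1.97), Tnfrsf4 (-1.57) and Ikzf2 (-1.46), the last a Treg transcription factor. All 7 counted recirculating or effector Treg markers were higher in S1pr1-only cells, summing to 247 CPM against 63.2 CPM in Tnfrsf9-only cells. B and plasma cell markers summed to 605 CPM against 43.9 CPM, and 6 of 8 proliferation genes were higher. Without the 286 cells with recirculating or effector markers the ratios stayed close, at 1.78 for Nrp1, 1.79 for Gpr83, 1.40 for Nt5e and 1.17 for Capg. The 15 alternatives included ones without B, plasma cell and macrophage marker cells and without proliferating cells. Over them, the lowest ratios were 1.49 for Nrp1, 1.41 for Gpr83, 1.08 for Nt5e and 1.03 for Capg. They were 0.88 for Ctla4 and 0.71 for Izumo1r, so the ratios of all members called higher stayed past 1.5-fold.

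Co-detection was read after thinning each cell to 3000 UMIs, which left out 309 shallower cells (162 Lta-/-, 147 Foxp3eGFP) and kept 4144. For a pair of members, the cells with both were divided by the number expected from the product of their shares, where at least 5 were expected. Of 45 pairs, 29 could be counted, and 20 were found together at least 1.5 times as often as that product, with 0 below 1 and a median of 1.69. The ratio was not computed for pairs of other genes. The counts of pairs here and below thus have no share over all genes beside them and are not shown to be particular to the members. Nrp1 with Itgb8 was highest, in 25 cells with 7.09 expected, a ratio of 3.52 (2.28 to 5.20). Nrp1 with Nt5e followed in 80 cells with 25.4 expected (3.14, 2.49 to 3.91), then Entpd1 with Capg in 25 with 8.80 expected (2.84, 1.84 to 4.19) and Ctla4 with Lrrc32 in 79 with 29.3 expected (2.70, 2.14 to 3.37). Nrp1 with Gpr83 was lowest, in 43 cells with 37.0 expected (1.16, 0.84 to 1.57). The 185 cells that carried both hashtags imply about 185 further doublets of a single genotype among the used cells (4.16%), which add to co-detection.

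Ratios of joint detection were lower within the gate-transcript classes than in all cells or in cells with neither, but the sets are not like for like. The ratio cannot pass 1 over the larger share of a pair, and shares were higher in these classes. After thinning, Izumo1r was found in 54.8% of cells with both gate transcripts and 36.1% of all cells, and Ctla4 in 40.3% and 14.0%. The pairs with at least 5 cells expected also differed between the sets. Within the 1032 thinned cells with a Foxp3 or Il2ra UMI, 4 of 31 counted pairs passed 1.5, with a median of 1.22. They were Nrp1 with Itgb8 (2.57, 1.59 to 3.94), Entpd1 with Capg (2.01, 1.07 to 3.44), Nrp1 with Nt5e (1.93, 1.38 to 2.63) and Itgb8 with Nt5e (1.92, 0.92 to 3.53). Within the 186 cells with both gate transcripts 0 of 22 did, with a median of 1.06. Within the 3112 cells with neither, 11 of 20 counted pairs passed, with a median of 1.65, near the 1.69 of all cells. Classes of thinned cells were assigned after thinning. The 3112 cells therefore include some with a gate transcript at full depth, where 2982 cells had neither. In S1pr1-only cells 12 of 24 passed, and in Tnfrsf9-only cells 8 of 10. Nrp1 with Gpr83 was at 0.91 (0.62 to 1.29) in cells with a gate transcript and 0.90 (0.46 to 1.57) in cells with neither, where Nrp1 with Nt5e was at 3.92 (2.80 to 5.34). Nrp1 with Nt5e and with Itgb8 thus kept ratios whose intervals lie above 1 among cells with a gate transcript, and Nrp1 with Gpr83 did not.

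**Figure D4:**
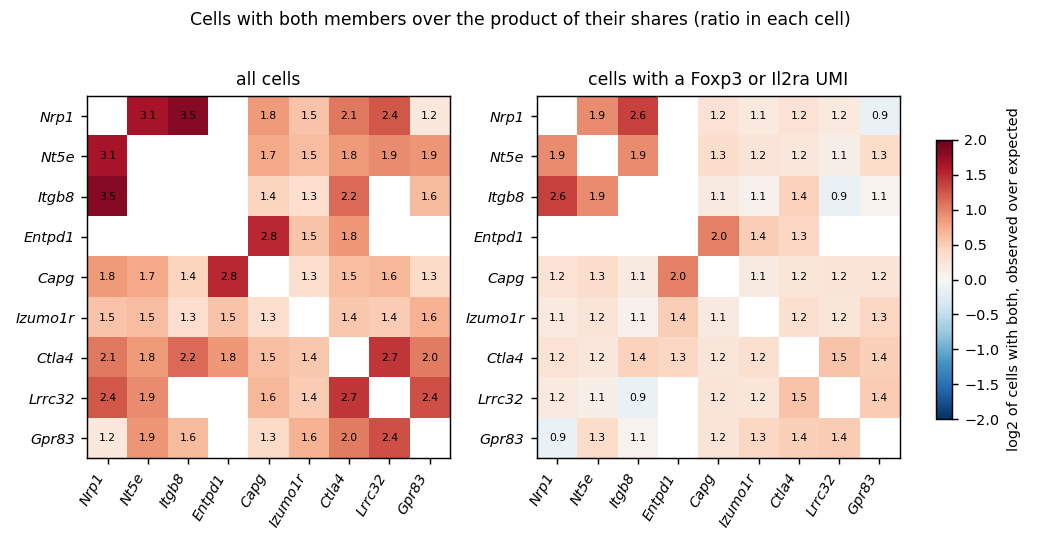
Ratio of observed to expected cells with both members of a pair, printed in each square and coloured on a log2 scale, in all cells (left) and in cells with a Foxp3 or Il2ra UMI (right) after thinning to 3000 UMIs; white squares had under 5 cells expected. Nrp1 with Itgb8 is highest in both panels (3.52 and 2.57), Nrp1 with Nt5e is at 3.14 and 1.93, Entpd1 with Capg at 2.84 and 2.01, and Nrp1 with Gpr83 at 1.16 and 0.91.

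The number of members detected in a thinned cell averaged 2.27 in cells with both gate transcripts, 1.64 in Il2ra only, 1.63 in Foxp3 only and 0.80 in cells with neither, and no cell had more than 6. These gate classes were again assigned after thinning. At least 3 members were found in 44.1% of cells with both, 26.5% in Il2ra only, 23.2% in Foxp3 only, 6.52% with neither and 1.59% of Ccr9-high cells. Read the other way, a Foxp3 UMI was found in 6.17% of the 1717 cells with 0 members, 12.3% with 1, 21.9% with 2, 30.7% with 3, 40.3% with 4 and 48.9% of the 45 cells with 5. Tnfrsf9 went the other way, at 31% of cells with 0 members and 15.6% of those with 5. Of single members, Lrrc32 was tied most to the gate: 49.8% of its cells had an Il2ra UMI (ratio 3.23, 2.64 at the lower bound) and 39.2% a Foxp3 UMI (2.81). Izumo1r was tied least, with 20.9% and 18.6% (1.35 and 1.33).

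Nrp1 and Gpr83 were the pair co-detected least relative to their shares. The 503 cells with Nrp1 and no Gpr83 were set against the 515 with Gpr83 and no Nrp1, a comparison chosen after these values were seen. The median depths were 5171 and 5870 UMIs. Of 5 counted members other than these, Nt5e (68.5 against 35.4 CPM, log2 0.95) and Capg (186 against 101 CPM, 0.87) were called higher in Nrp1 cells, where 4.26% of genes were. Ctla4 (0.17) and Lrrc32 (0.17) did not differ by 1.5-fold, and Izumo1r was at 266 against 353 CPM (-0.41, -0.53 to -0.29). Both calls end in the 262 and 258 of these cells that carried a gate transcript: there 0 of 5 members were called higher, where 4.51% of genes were, with Nt5e at 0.46 (0.06 to 0.86) and Capg at 0.53 (0.29 to 0.77). Below the UMI minimum in all these cells, Entpd1 had 39 and 8 UMIs and Itgb8 50 and 26. All 6 counted recirculating or effector markers were higher in the Nrp1 cells, at 715 against 57.4 CPM. Of 5 immature CD4 markers 3 were lower in the Nrp1 cells, at 848 against 1922 CPM, where 2.27% of genes were lower. Without cells carrying recirculating or effector markers, Nrp1 with Nt5e was still found together at 3.55 times, Nrp1 with Itgb8 at 4.27 times and Nrp1 with Gpr83 at 1.31 times the expected number, while Entpd1 with Capg then had under 5 cells expected.

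Between genotypes the members differed little. Lta-/- over Foxp3eGFP cells gave 1 of 8 counted members higher, where 1.39% of genes were, and 0 lower, where 2.20% were. With 1 mouse per genotype, a difference between genotypes cannot be told apart from one between mice or hashtags. The 1 member called was Itgb8, at 8.18 CPM (6.76 to 9.82) in Lta-/- cells and 5.40 CPM (4.29 to 6.71) in Foxp3eGFP cells, log2 0.60 (0.18 to 1.03), from 115 and 81 UMIs. The most Itgb8 UMIs in a single cell were 10 in Lta-/- cells and 3 in Foxp3eGFP cells. The interval treats UMIs of the same cell as independent. The call ends without recirculating or effector marker cells (0.46), without proliferating cells (0.47), when cells needed 1000 genes and no more than 5% mitochondrial UMIs (0.54) and with a hashtag share of at least 95% (0.582, just under the threshold). Izumo1r was at 244 and 182 CPM in the same order (0.42, 0.35 to 0.49), Nrp1 at 45.9 and 34.6 CPM (0.41, 0.24 to 0.58) and Capg at 101 and 86.7 CPM (0.22, 0.11 to 0.32), all under 1.5-fold. Ctla4 was at 50.6 and 56.7 CPM (-0.16, -0.31 to -0.02) and Nt5e at 22.8 and 26.4 CPM (-0.21, -0.42 to 0.01). Gpr83 (-0.04, -0.21 to 0.12) and Lrrc32 (0.02, -0.23 to 0.27) had intervals that hold 0 and leave out a 1.5-fold difference.

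Within gate classes the genotype ratios of Izumo1r, Nrp1 and Nt5e were uneven. In cells with neither gate transcript, Izumo1r was at 217 CPM in Lta-/- cells and 142 CPM in Foxp3eGFP cells (0.62, 0.52 to 0.71) and Nrp1 at 27.2 and 18.1 CPM (0.59, 0.31 to 0.87). These were the 2 of 6 members called higher, where 1.47% of genes were. In cells with both gate transcripts Izumo1r was at 375 and 370 CPM (0.02, -0.17 to 0.21). In Il2ra-only cells Nrp1 was at 86.5 CPM in Lta-/- cells and 45 CPM in Foxp3eGFP cells (0.94, 0.57 to 1.32), where 1.66% of genes were higher, and in Foxp3-only cells it was at 82.7 and 85.6 CPM (-0.05, -0.44 to 0.34). Nt5e in cells with both gate transcripts was at 40.4 CPM in Lta-/- cells and 66.5 CPM in Foxp3eGFP cells (-0.72, -1.27 to -0.19), from 43 and 98 UMIs. It was the 1 of 7 members called lower, where 2.11% of genes were. Differences between the classes were not tested. In cells with both gate transcripts all 5 counted proliferation genes were lower in Lta-/- cells (359 against 687 CPM), and NK or ILC markers summed to 5.64 against 431 CPM. Recirculating or effector markers summed to 199 against 83.5 CPM there and to 224 against 135 CPM in cells with neither. The part of these markers in the member ratios was not tested.

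**Figure D5:**
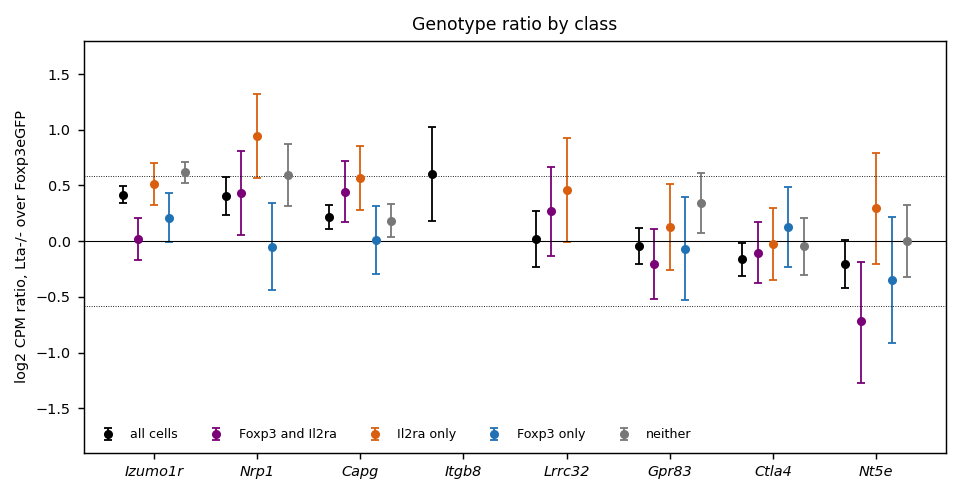
Log2 ratio of CPM, Lta-/- over Foxp3eGFP (y axis; dotted lines, 1.5-fold), for 8 members (x axis) in all cells and in each gate class with at least 100 UMIs; bars are exact 95% counting intervals. Izumo1r is at 0.62 in cells with neither transcript and 0.02 in cells with both, Nrp1 at 0.94 in Il2ra only, and Nt5e at -0.72 in cells with both.

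By S1pr1 and Tnfrsf9 class, Izumo1r was called higher in Lta-/- cells only among cells with neither S1pr1 nor Tnfrsf9, at 263 against 147 CPM (0.84, 0.69 to 0.99), where 1.90% of genes were, and Nrp1 was called there (0.62) and in Tnfrsf9-only cells (0.84, where 1.15% were). Cells with both gate transcripts made up 7.66% (6.60 to 8.84) of Lta-/- cells and 9.87% (8.66 to 11.2) of Foxp3eGFP cells. At equal depth 16 of 26 counted pairs were co-detected at 1.5 or more in Lta-/- cells and 17 of 24 in Foxp3eGFP cells, and Nrp1 with Gpr83 was at 1.33 and 1.00. Of 15 counted other Treg genes, Lag3 (1.84) was higher and Penk (-2.70) lower in Lta-/- cells. Markers of other cells differed too: 3 of 7 recirculating or effector markers were higher in Lta-/- cells (212 against 141 CPM), and in 8.16% of Lta-/- and 4.66% of Foxp3eGFP cells they summed to at least 3 UMIs. Myeloid or dendritic markers were higher in 6 of 9 genes and lower in 1 (315 against 301 CPM). B and plasma cell markers summed to 91.4 against 465 CPM, and 6 of 8 proliferation genes were lower, at 1417 against 2127 CPM. Without the recirculating marker cells Nrp1 was at 0.34, Izumo1r at 0.43, Itgb8 at 0.46 and Nt5e at -0.43.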

How the data were processed

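Per the labels' protocols, the libraries used 10x Genomics 3′ v3.1 chemistry with hashtag antibodies. The deposited matrix holds raw UMI counts per gene and barcode, which the authors made, and the submitters' processing notes name Cell Ranger 6.0.1 and the build mm10 (GRCm38). No aligner setting is stated there. Cells needed 500 genes or more and no more than 10% mitochondrial UMIs, which removed 160 barcodes. Genotype was taken from a hashtag with at least 10 counts and 80% of hashtag counts, by the deposited feature names, which number the antibodies differently from the protocols. The 185 cells with both hashtags were left out, and no doublet caller was run. Medians were 3501.5 own against 42 other hashtag counts in Lta-/- cells and 5096 against 30 in Foxp3eGFP cells. The mRNA and hashtag counts share all 4798 barcodes.

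UMIs were summed over a class and divided by its total (CPM), with exact Poisson intervals, Clopper-Pearson intervals for shares and exact conditional binomial intervals for ratios, all at 95%. Depth was 14054827 UMIs in Lta-/- cells and 15010916 in Foxp3eGFP cells. Sums weight cells by depth. The members and lists were chosen with earlier results of these data known. List genes were named past a 1.5-fold ratio with 100 UMIs or more. The interval and co-detection calculations were tested on simulated data. Likeness used log2(CPM + 10) over classes of at least 20 cells. Of columns of per-sample values, 0 were not used. Python 3.11.15 with numpy 2.4.6, scipy 1.17.1, pandas 2.3.3 and matplotlib 3.10.9 was used.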

Additional observations from a re-analysis of the deposited data

How the results depend on the processing

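Most counts stayed within 1.5 times their value under the alternatives for cell filters, hashtag share, class threshold, depth, weighting and marker cells. For S1pr1 against Tnfrsf9 and for genotype, the count followed was of members lower, which was 0. A count that stayed at 0 does not follow the members called higher in those comparisons. The alternatives without Ccr9-high immature cells and without recirculating or effector marker cells were chosen after seeing the data. Members higher in cells with both gate transcripts over Il2ra only numbered 7, and 4 in Lta-/- cells alone, 4 as a mean over cells and 4 of 6 after thinning to 3000 UMIs. Nrp1, Izumo1r and Nt5e lay near the threshold there. Pairs co-detected at 1.5 or more numbered 20 of 29, and 4 of 31 in cells with an Il2ra or Foxp3 UMI, while 11 of 20 counted passed in cells with neither. These sets count different pairs at different shares, and their classes were assigned after thinning. Members lower in Lta-/- over Foxp3eGFP cells numbered 0, and 1 (Nt5e) in cells with both gate transcripts. Members lower in S1pr1-only over Tnfrsf9-only cells numbered 0, and 1 with no UMI minimum, where Tigit had 3 and 0 UMIs and its ratio is set by the floor of 3 counts. Of the member ratios recomputed, 652 stayed inside their counting interval, 71 moved outside it and none of those called turned its sign. These ratios include members below the UMI minimum, such as Tigit and Entpd1, whose intervals are wide. Most alternatives also reuse many of the same cells, which favours staying inside the interval. No paired analysis was possible because each genotype was 1 mouse, which also leaves no replicate to leave out. Depth limits Tigit (9 UMIs) and Entpd1 (96 UMIs) most, and a share of cells with a UMI can be raised by ambient RNA and doublets and lowered by low depth.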

Other observations

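Other genes followed the members across the 16 classes by presence of Foxp3, Il2ra, S1pr1 and Tnfrsf9 UMIs. Likeness was the Pearson r of log2(CPM + 10) over those 16 classes among 5999 genes, a description only, since the classes share a library and the members share the cells. Nrp1 and Nt5e had the same closest gene, Ltb (lymphotoxin beta), at r of 0.92 and 0.96. Ctla4 was closest to Mcl1 (0.92), Il2rb (0.92) and Cd55 (0.92). Gpr83 was closest to Phc3 (0.92), Tmem64 (0.92) and Arid5b (0.91), and Lrrc32 to Ahcyl2 (0.91), Cish (0.91) and Sh3bp5 (0.90). Izumo1r was closest to Gbp7 (0.95) and Capg to Ifi203 (0.95). Itgb8 had the weakest closest gene of the 8, Samsn1 (0.84).

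Lta, the gene named in the knockout genotype, was read with the members within Foxp3eGFP cells thinned to 3000 UMIs, of which 184 of 2062 had a Lta UMI, since its level differs between the genotypes. Relative to the product of their shares, Lta was found with Lrrc32 at 2.54 times (1.63 to 3.78), with Gpr83 at 1.95 (1.37 to 2.70), with Ctla4 at 1.78 (1.31 to 2.36), with Nrp1 at 1.12 (0.65 to 1.79) and with Nt5e at 0.82 (0.41 to 1.47). Lta with Izumo1r was at 1.40 (1.11 to 1.73) and with Capg at 1.11 (0.79 to 1.51). In the Lta-/- cells, where 37 had a Lta UMI, Izumo1r was at 0.81 (0.42 to 1.42) and Capg at 1.37 (0.68 to 2.44). The 5 pairs named first had under 5 cells expected there. At full depth and over both genotypes, a Lta UMI was found in 21.0% of cells with both gate transcripts. It was found in 15.8% with Il2ra only, 6.84% with Foxp3 only and 6.51% with neither. The part of gate class in these ratios was not tested. Of all Lta UMIs, 72 came from Lta-/- cells and 509 from Foxp3eGFP cells.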
